A study of Mus musculus with 10 samples.

Results

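The chromatin mark H3K4me2 (histone H3 dimethylated at lysine 4), found at promoters and enhancers, was examined at 9 mouse chemokine receptor genes: Ccr1, Ccr2, Ccr3, Ccr4, Ccr6, Ccr8, Ccr9, Cxcr4 and Cxcr6. A called peak was assigned to a gene when that gene was the nearest protein-coding gene within 100 kb in the RefSeq annotation of GRCm38.p6, which has the coordinates of mm10. This gave 139 of the 152121 peaks in 8 peak lists, and 27 of the 30062 regions formed by merging peaks of all lists that lay within 500 bp. Per the labels, every cell fraction came from mice with airway inflammation of the genotype Gata3-YFP/YFP, in which yellow fluorescent protein (YFP) reports on Gata3, the transcription factor of type 2 lymphocytes, and was sorted by flow cytometry with antibodies and YFP. Group 2 innate lymphoid cells (ILC2s), T helper 2 (Th2) cells and cells labelled naive T gave 2 libraries each, 1 from bronchoalveolar lavage and 1 from the mediastinal lymph node. CD4+ cells of the thymus and of the spleen gave 1 library each. The labels give neither the gate used to sort naive T cells, nor an age or inflammation protocol, nor whether animals were pooled. No group from uninflamed mice was analysed here. A level below is the authors' normalized tag count, in sequenced tags of a peak per 10000000 tags of the library, and the tags of separate peaks in a region were summed. Values of a cell type are given for the lavage library first and the lymph node library second. A library with no peak did not meet the authors' threshold of about 40 tags or their other criteria, and may still carry some of the mark.

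Chemokine receptors are G protein-coupled receptors that steer leukocytes along gradients of secreted chemokines. Ccr3, Ccr4 and Ccr8 are textbook receptors of type 2 immunity, bound by eotaxins, by Ccl17 and Ccl22, and by Ccl1. Ccr9 binds Ccl25 and is used by thymocytes and by gut-homing lymphocytes, Cxcr4 binds Cxcl12 and keeps cells in marrow, thymus and lymphoid tissue, and Cxcr6 binds Cxcl16 and marks lymphocytes of tissues. Ccr1 and Ccr2 are inflammatory receptors, of Ccl3 and Ccl5 and of Ccl2, and Ccr6, the receptor of Ccl20, is known from T helper 17 cells and B cells. Ccr9, Cxcr6, Ccr1, Ccr3 and Ccr2 lie in this order within 341929 bp of chromosome 9.

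The start sites in this cluster differed in which libraries covered them with a peak. The sequences of the 250 bases before the RefSeq start sites of the 5 genes are shown, since the peak calls at these promoters carry the differences described below. They are from RefSeq on GRCm38.p6, written 5′ to 3′ on the gene's strand, with matches to 4 motifs in capitals. The Ccr9 window lies at chr9:123766961-123767210 on the plus strand, the Cxcr6 window at chr9:123806227-123806476 on the plus strand, the Ccr1 window at chr9:123968693-123968942 on the minus strand, the Ccr3 window at chr9:124021721-124021970 on the plus strand and the Ccr2 window at chr9:124101933-124102182 on the plus strand.
Ccr9: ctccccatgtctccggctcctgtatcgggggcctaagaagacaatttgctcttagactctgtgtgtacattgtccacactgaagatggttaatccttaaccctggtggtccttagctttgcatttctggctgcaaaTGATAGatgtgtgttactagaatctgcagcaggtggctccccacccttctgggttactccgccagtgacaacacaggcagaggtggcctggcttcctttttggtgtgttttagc
Cxcr6: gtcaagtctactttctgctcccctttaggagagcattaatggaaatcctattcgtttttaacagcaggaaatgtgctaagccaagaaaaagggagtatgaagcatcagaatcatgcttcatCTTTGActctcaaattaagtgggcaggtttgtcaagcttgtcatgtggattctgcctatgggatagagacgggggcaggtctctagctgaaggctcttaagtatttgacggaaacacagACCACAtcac
Ccr1: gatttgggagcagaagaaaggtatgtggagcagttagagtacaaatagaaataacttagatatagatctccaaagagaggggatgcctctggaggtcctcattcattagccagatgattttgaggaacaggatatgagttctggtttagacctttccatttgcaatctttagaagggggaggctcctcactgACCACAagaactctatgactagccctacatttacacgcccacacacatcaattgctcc
Ccr3: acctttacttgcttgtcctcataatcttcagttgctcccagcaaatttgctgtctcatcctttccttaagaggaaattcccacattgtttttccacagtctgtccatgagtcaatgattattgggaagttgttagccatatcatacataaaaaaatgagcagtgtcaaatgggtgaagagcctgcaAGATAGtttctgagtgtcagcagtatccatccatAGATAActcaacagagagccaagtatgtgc
Ccr2: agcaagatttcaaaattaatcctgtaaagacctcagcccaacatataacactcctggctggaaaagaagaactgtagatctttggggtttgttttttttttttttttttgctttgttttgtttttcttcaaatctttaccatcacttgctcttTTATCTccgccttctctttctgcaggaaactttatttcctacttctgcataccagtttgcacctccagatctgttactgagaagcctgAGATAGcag
The motifs searched on both strands were TGATAA (with the forms AGATAA, then AGATAG, then TGATAG) for GATA factors, AGGTCA for ROR factors, TGTGGT for Runx factors and CTTTGA for TCF factors. The Ccr3 window held 2 GATA matches, which start 64 and 30 bases before the start site, and the Ccr2 window also held 2 GATA matches. The Ccr9 window held 1 GATA match, the Ccr1 window 1 Runx match, and the Cxcr6 window 1 Runx and 1 TCF match. No matches in the members' windows overlapped. Among all 32851 windows of the same length in the RefSeq table, 26.5% held a GATA match, 14.0% a ROR match, 14.0% a Runx match and 13.8% a TCF match, against 5, 1, 2 and 4 of the 10 members' windows. A match is a run of letters and not a measured binding site.

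The libraries differed in depth, and the lavage library labelled naive T stood apart from its lymph node partner. Total tags lay between 11870820 and 24945548 per library and called peaks between 14723 and 21985. The share of all 32851 RefSeq start sites covered by a peak lay between 31.3% and 39.8%. At 6 marker genes of naive T cells the summed level was 7077.6 tags in the lavage naive T library against 22287.2 tags in the lymph node one, and at 3 markers of regulatory T cells it was 9520.8 tags against 2593.5 tags. All 3 regulatory T markers and all 6 naive T markers had a peak in both. The same 3 regulatory T markers summed to 5250.3 and 5255.6 tags in ILC2s and to 6109.2 and 6912.6 tags in Th2 cells. Foxp3 had no peak in those 4 libraries, so a high sum is not particular to regulatory T cells. Of 5 Th2 markers, 5 had a peak in the lavage naive T library and 3 in the lymph node one, which lacked Il4 and Il13. ILC2 libraries had no peak at Cd4 and summed to 1299.2 and 1512.0 tags at 7 T cell markers, whereas the other 6 libraries summed to 9500.8 tags or more. No library had a peak at any of 7 macrophage and neutrophil markers, and of 6 eosinophil and mast cell markers only Cpa3 had a peak. It had 328 and 516 tags in ILC2s, none in Th2 cells, 52.7 and 234 tags in naive T cells, 110.3 tags in thymus and 175 tags in spleen. Other sets had peaks in every library. Summed tags ran from 394.5 (Th2 lavage) to 2148.6 (naive T lymph node) at 4 natural killer markers. At 5 B cell markers they ran from 198.4 (ILC2 lavage) to 1396.8 (thymus), and at 4 epithelium markers from 128.1 (Th2 lymph node) to 1002.8 (thymus). The median level over all regions called in all 6 airway libraries was also lower in Th2 cells, by log2 differences of -0.62 for Th2 against naive T and 0.43 for ILC2 against Th2, so orders of levels below are of the deposited tags and are set against centred differences further on. What the difference between the naive T libraries contributes to the results below was not tested, and comparisons with naive T cells are given with and without the lavage library. Each cell type has its 2 libraries from 2 sites, so site and animal differences are part of the replicate spread, and p-values measure only the spread between these samples.

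**Figure D1:**
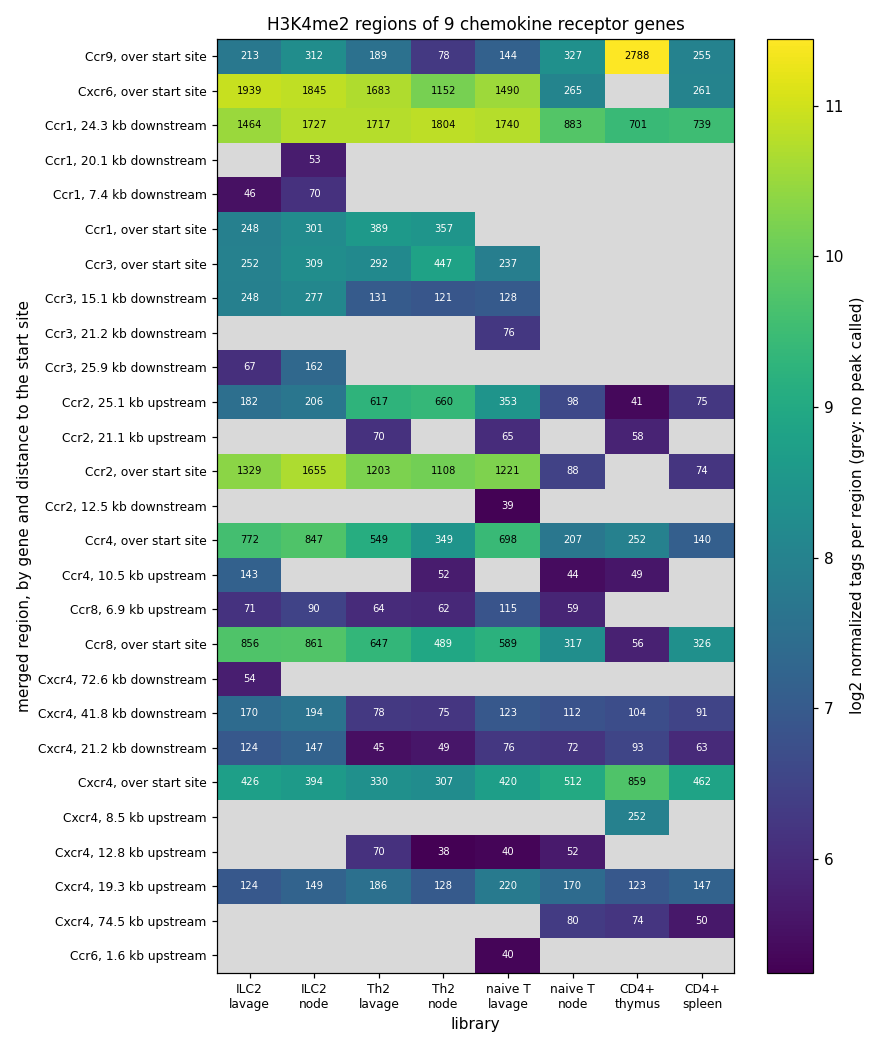
Normalized tags (log2 colour scale, value printed in each cell) of the 27 merged H3K4me2 regions of the 9 receptor genes in the 8 libraries, with grey where no peak was called. Rows are named by the distance of the merged region from the start site, and a region named as over a start site does not reach it in every library. The lavage naive T library has the cluster regions that ILC2 and Th2 cells have at Ccr3 and Ccr2, while the lymph node naive T library lacks them or has under 100 tags.

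Peaks covered more of the chromosome 9 cluster in the airway ILC2 and Th2 libraries, and in the lavage naive T library, than elsewhere. From the start of Ccr9 to the end of Ccr2, peaks lay over 26.5% and 30.0% of the bases in ILC2s, over 28.8% and 29.5% in the Th2 libraries, and over 23.0% and 8.9% in naive T cells. They lay over 6.3% of the bases in thymus and 8.7% in spleen CD4+ cells. The lymph node naive T library is thus near the spleen library, and the lavage naive T library near the Th2 and ILC2 libraries. The number of peaks was 16 and 16 in ILC2s, 13 and 14 in the Th2 libraries, 14 and 11 in the naive T libraries, 6 in thymus and 10 in spleen. Tags per kb of peak differed less, at 76.1 and 80.1 in ILC2s, 70.6 and 64.0 in Th2 cells, 76.0 and 67.4 in the naive T libraries, and 115.6 in thymus against 59.9 in spleen, where the thymus value includes a long peak over Ccr9.

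**Figure D2:**
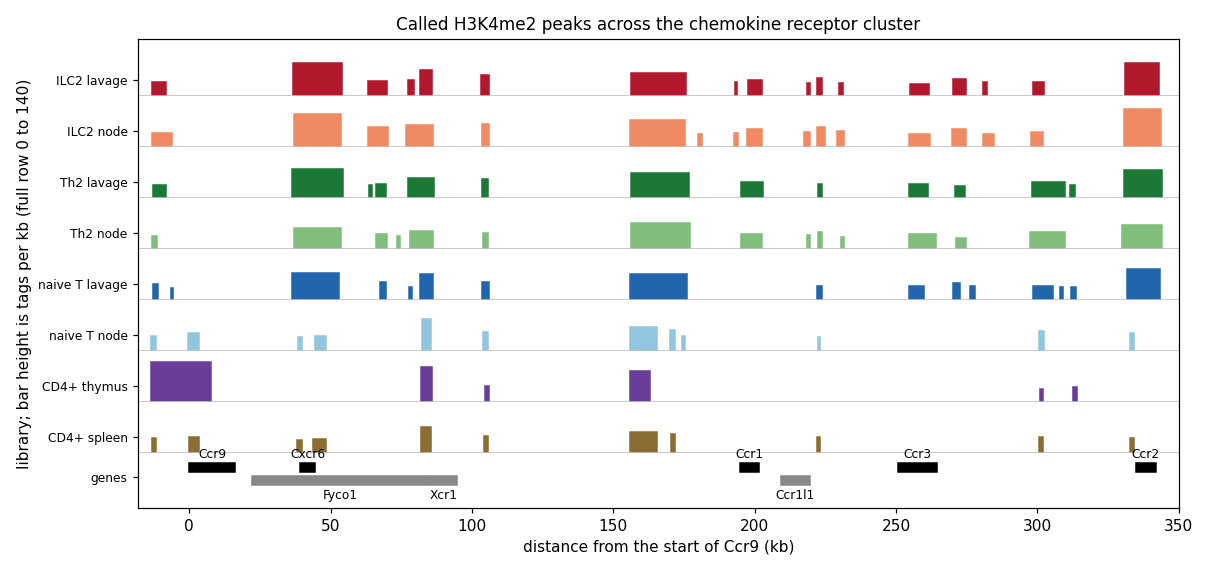
Called peaks in each library across the receptor cluster, by distance from the start of Ccr9 in kb, with bar width the peak's length and bar height its tags per kb; genes are drawn below, members in black. Peaks over Ccr1, Ccr3 and Ccr2 are seen in the ILC2 and Th2 rows, those over Ccr3 and Ccr2 also in the lavage naive T row, a 21150 bp peak over Ccr9 in the thymus row, and a broad peak between Xcr1 and Ccr1 in all 8 rows.

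Ccr9 was marked over its start site in naive T cells of the lymph node and in CD4+ cells of thymus and spleen. The thymus peak held 2787.8 tags over 21150 bp, or 131.8 tags per kb. The peaks over the start site held 245.8 tags in the lymph node naive T library and 194.4 tags in spleen, at 58.9 and 52.0 tags per kb. No peak covered the Ccr9 start site in either ILC2 library, in either Th2 library or in the lavage naive T library. These 5 libraries had peaks only upstream, the nearest of which ended between 5556 and 11210 bp before the gene, and their tags came to 213.3 and 312.3 in ILC2s, 188.9 and 77.5 in Th2 cells and 143.8 in the lavage naive T library.

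Cxcr6 lies inside the gene Fyco1, so each of its peaks overlaps both genes and cannot be assigned to either alone. One region, chr9:123803455-123821477, held 1939.4 and 1844.9 tags in ILC2s, 1682.5 and 1152.4 tags in Th2 cells, and 1490.0 and 264.5 tags in naive T cells. It held 261.1 tags in spleen and was not called in thymus. The 5 high libraries had single peaks of 16659 to 17766 bp, while in the lymph node naive T and spleen libraries only a short peak covered the start site, with 65.0 and 67.6 tags. By the mean of the deposited tags, uncentred, the order was ILC2, Th2, naive T, spleen and thymus, and the Th2 and naive T libraries overlapped; with centring ILC2s and Th2 cells differed by 0.01 ± 0.91 on the log2 scale (limma, SE).

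Ccr1 had a peak over its start site in ILC2 and Th2 libraries alone among the 8. That region, chr9:123962297-123970135, held 247.7 and 300.5 tags in ILC2s and 389.0 and 357.2 tags in Th2 cells. The 2 ILC2 values lay below the 2 Th2 values, but the ILC2 peaks were shorter, and tags per kb were 52.8 and 58.1 in ILC2s and 50.3 and 48.0 in Th2 cells. The tallest region of the gene lies elsewhere, at chr9:123923120-123944363, which ends 24329 bp downstream of the start site and between Xcr1 and Ccr1. It held 1464.0 and 1727.1 tags in ILC2s, 1717.4 and 1803.6 tags in Th2 cells, and 1740.3 and 882.8 tags in naive T cells. In thymus it held 700.8 tags and in spleen 739.3 tags, so it was called in all 8 libraries, including those with no peak at the promoter. ILC2s also had a small region between this one and the gene, with 45.7 and 70.1 tags, called in no other library.

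Ccr3, the eotaxin receptor known best from eosinophils, was marked in ILC2s, Th2 cells and the lavage naive T library. The region over the gene, chr9:124021787-124031493, held 252.1 and 309.2 tags in ILC2s, 292.4 and 447.3 tags in Th2 cells and 237.4 tags in the lavage naive T library, with no peak in the lymph node naive T, thymus or spleen libraries. The ILC2 lavage peak began past the start site, so 4 libraries covered the start site itself. A second region, about 15 kb downstream of the start site at chr9:124037032-124041898, was called in the same 5 libraries. It held 247.7 and 277.3 tags in ILC2s, against 130.9 and 120.5 tags in Th2 cells and 127.9 tags in the lavage naive T library. The ILC2 libraries were thus the highest in tags. Per kb of peak the values were 54.4 and 57.0 in ILC2s, 36.3 and 34.7 in Th2 cells and 54.8 in the lavage naive T library. A further region, chr9:124047875-124051799, was called only in ILC2s, with 67.3 and 162.1 tags.

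Ccr2 had its own broad peak and an upstream region that varied differently between the cell types. The region over the start site, chr9:124097073-124111339, held 1328.9 and 1655.3 tags in ILC2s, 1203.1 and 1107.8 tags in Th2 cells and 1220.8 and 88.2 tags in naive T cells. It held 73.7 tags in spleen and was not called in thymus, and the small lymph node naive T and spleen peaks did not reach the start site. The upstream region, chr9:124064663-124077059, lies 25124 bp before the start site. Its tags were 617.1 and 660.4 in Th2 cells, and 352.8 tags in the lavage naive T library, against 182.0 and 206.3 tags in ILC2s, 98.3 tags in the lymph node naive T library, 41.5 tags in thymus and 75.5 tags in spleen. In deposited tags the Th2 libraries were the highest upstream, while the ILC2 libraries were the highest over the start site. Per kb of peak, the upstream values were 52.6 and 53.3 in Th2 cells against 65.2 in the lymph node naive T library, which was the highest, and with centring the start site region differed by -0.07 ± 1.29 for ILC2 against Th2 (log2, limma, SE).

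Ccr4 and Ccr8, the receptors of Ccl17 and Ccl22 and of Ccl1, lie on chromosome 9 outside the cluster and had the most tags in ILC2s. The region over the Ccr4 start site, chr9:114486124-114498758, held 771.7 and 846.7 tags in ILC2s, 548.5 and 348.8 tags in Th2 cells and 698.4 and 207.2 tags in naive T cells, with 252.1 tags in thymus and 140.3 tags in spleen. The peaks over the start site were 12365 and 12551 bp long in ILC2s and 11989 bp in the lavage naive T library, but 3072 bp in the lymph node naive T library, so tags per kb differed less. They were 62.4 and 67.5 in ILC2s, 57.8 and 59.4 in the Th2 libraries, 58.3 and 67.4 in naive T cells, 81.0 in thymus and 52.3 in spleen, so that thymus was the highest per kb. The region over the Ccr8 start site, chr9:120090107-120098738, held 856.3 and 861.1 tags in ILC2s, 647.1 and 489.4 tags in Th2 cells and 588.5 and 316.5 tags in naive T cells. It held 325.8 tags in spleen and 56.2 tags in thymus, where the start site was not covered. Here the ILC2 libraries were also highest per kb, at 99.5 and 104.8 tags against 90.0 and 68.8 tags in Th2 cells and 81.7 and 50.0 tags in naive T cells.

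Cxcr4 had a peak over its start site in all 8 libraries, as did Ccr4. The region over it, chr1:128587562-128594195, held 425.7 and 393.8 tags in ILC2s, 330.4 and 307.5 tags in Th2 cells and 420.0 and 511.9 tags in naive T cells, with 859.4 tags in thymus and 462.0 tags in spleen. The regions downstream of the gene had another order. The region at chr1:128547893-128550519 held 170.4 and 193.6 tags in ILC2s, 77.9 and 75.0 tags in Th2 cells and 122.9 and 111.7 tags in naive T cells. The region at chr1:128569115-128571133 held 123.9 and 146.7 tags in ILC2s, 44.9 and 48.9 tags in Th2 cells and 75.6 and 71.9 tags in naive T cells. Thymus and spleen held 104.5 and 90.9 tags at the first region and 93.0 and 63.4 tags at the second. In deposited tags the ILC2 libraries were the highest and the Th2 libraries the lowest at both. How many of all regions have this order was not counted. With centring, Th2 against naive T was 0.00 ± 0.22 at the first and -0.04 ± 0.21 at the second (log2, limma, SE), so the lower Th2 level did not hold. Upstream, the region at chr1:128605147-128606925 was not called in ILC2s, thymus or spleen, and held 69.8 and 37.9 tags in Th2 cells and 40.5 and 52.0 tags in naive T cells. Farther upstream, chr1:128611643-128616309 was called in all 8 libraries, with 123.5 and 148.9 tags in ILC2s and 185.8 and 128.0 tags in Th2 cells. It held 220.3 and 169.8 tags in naive T cells, 123.4 tags in thymus and 147.3 tags in spleen. Its log2 differences were -0.33 ± 0.34 for ILC2 against naive T and -0.62 ± 0.34 for ILC2 against Th2 (limma, SE). A region 8544 bp upstream of the start site was called in thymus alone, with 252.1 tags.

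Ccr6 had 1 peak in all 8 lists, of 40.1 tags in the lavage naive T library, close to the threshold. Neither of its 2 RefSeq start sites was covered in any library.

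**Figure D3:**
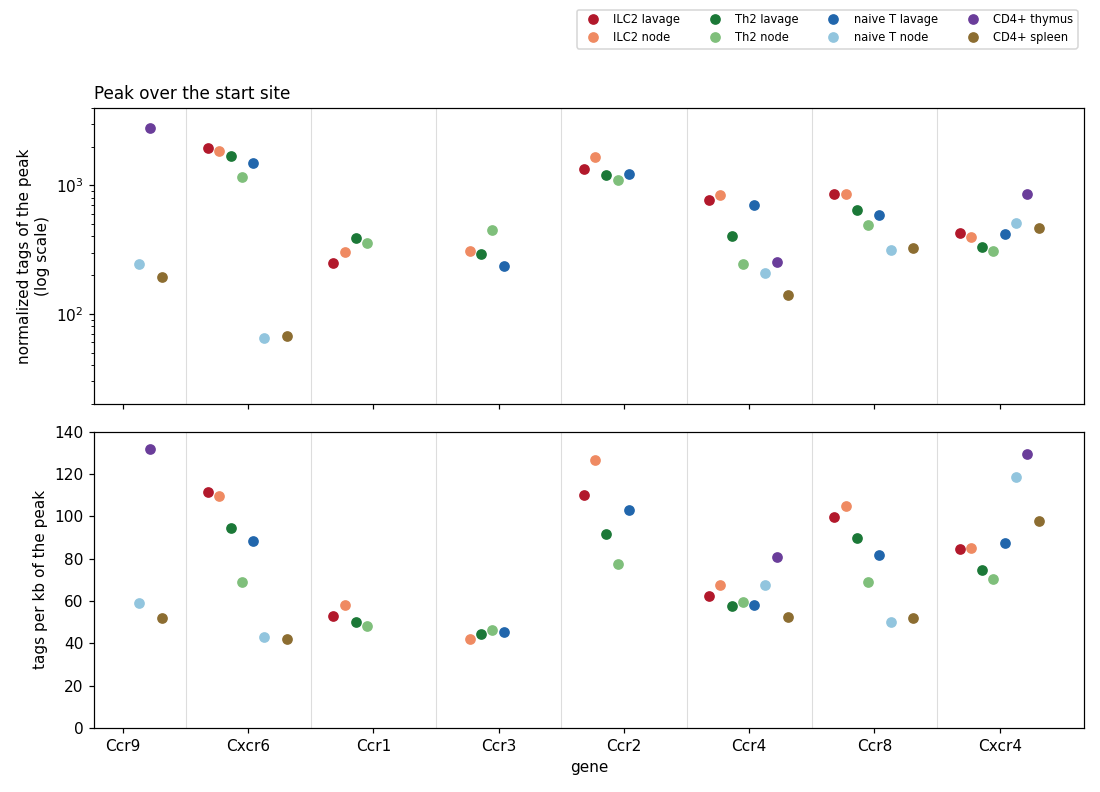
Normalized tags (upper panel, log scale) and tags per kb (lower panel) of the peak that covers the start site of each receptor gene, 1 point per library, with no point where no peak covers it; Ccr6 had none. Ccr1 has points in the 4 ILC2 and Th2 libraries, and the thymus point of Ccr9 stands at 2787.8 tags.

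Peak heights were compared between cell types with limma, a linear model fitted over all 11644 regions called in all 6 airway libraries, on log2 tags centred on each library's median. Of the members' regions, 12 were called in all 6 libraries and could be tested. With Benjamini-Hochberg adjustment over all regions, none of the 12 passed an adjusted p of 0.05 in any contrast, with 3, 1 and 3 at an unadjusted p under 0.05 for ILC2 against naive T, Th2 against naive T and ILC2 against Th2. Over all regions, 19.1%, 19.0% and 21.8% had an unadjusted p under 0.05 in these contrasts, so 3, 1 and 3 of 12 were not far from the share of all regions. With the adjusted p, ILC2s were higher than naive T cells at 2.61% and lower at 1.62%, Th2 cells were higher than naive T cells at 0.112% and lower at 0.0258%, and ILC2s were higher than Th2 cells at 2.1% and lower at 1.28%. The median standard error of the 12 regions was 0.45 on the log2 scale, against 0.19 for all regions, so this design resolves less at the receptor regions than at most others. The median log2 difference over the 12 regions was 0.68 for ILC2 against naive T, where it was -0.02 over all regions tested. For Th2 against naive T it was 0.55, where it was 0.01 over all regions. For ILC2 against Th2 it was -0.03, where it was -0.01 over all regions. The medians against naive T cells depended on the naive T library and the scale: without the lavage library they were 1.28 for ILC2 and 1.30 for Th2, without the lymph node library 0.20 and 0.07, per kb of peak 0.35 and 0.38, and with no centring 0.50 and -0.06. The other alternatives and left-out libraries gave 0.60 to 1.17 for ILC2 and 0.33 to 0.96 for Th2.

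The smallest adjusted p-values belonged to the region 21166 bp downstream of the Cxcr4 start site. The log2 difference there was 1.05 ± 0.21 for ILC2 against naive T (SE, limma adjusted p = 0.062) and 1.09 ± 0.21 for ILC2 against Th2 (limma adjusted p = 0.061). The other downstream Cxcr4 region, 41780 bp from the start site, differed by 0.81 ± 0.22 between ILC2s and naive T cells (limma adjusted p = 0.13) and by 0.81 ± 0.22 between ILC2s and Th2 cells (limma adjusted p = 0.12). Neither passed. At the Cxcr4 start site the difference was 0.00 for ILC2 against naive T, with a 95% interval of -0.38 to 0.38, it was 0.07 for Th2 against naive T, with an interval of -0.31 to 0.46, and it was -0.07 for ILC2 against Th2, with an interval of -0.46 to 0.31. The upstream Ccr2 region had 2.39 ± 0.70 for Th2 against naive T (limma adjusted p = 0.20) and -2.16 ± 0.70 for ILC2 against Th2 (limma adjusted p = 0.17). Per kb of peak these 2 values were 0.50 and -0.47. The remaining differences of at least 0.8 had wide errors. For ILC2 against naive T they were 2.36 ± 1.29 at the Ccr2 start site, 1.77 ± 0.91 at Cxcr6, 1.27 ± 0.71 at Ccr4 and 1.17 ± 0.45 at the Ccr8 start site. For Th2 against naive T they were 2.43 ± 1.29 at the Ccr2 start site, 1.76 ± 0.91 at Cxcr6, 1.12 ± 0.45 at the region downstream of Ccr1, 1.0 ± 0.45 at the Ccr8 start site and 0.82 ± 0.71 at Ccr4. Because peaks differ in length as well as in density, most shrank per kb: for ILC2 against naive T they were then 0.83 at the Ccr2 start site, 1.0 at Cxcr6, 0.28 at Ccr4, 0.90 at the Ccr8 start site, and 0.63 and 0.43 at the nearer and farther downstream Cxcr4 regions. For Th2 against naive T they were 0.62 at the Ccr2 start site, 0.83 at Cxcr6, 0.59 downstream of Ccr1, 0.80 at the Ccr8 start site and 0.25 at Ccr4. Between ILC2s and Th2 cells the downstream Cxcr4 regions had 0.48 and 0.22 per kb. Ccr4 and the Ccr8 start site, which had the most tags in ILC2s, differed between ILC2s and Th2 cells by 0.45 ± 0.71 and 0.17 ± 0.45 with centring.

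**Figure D4:**
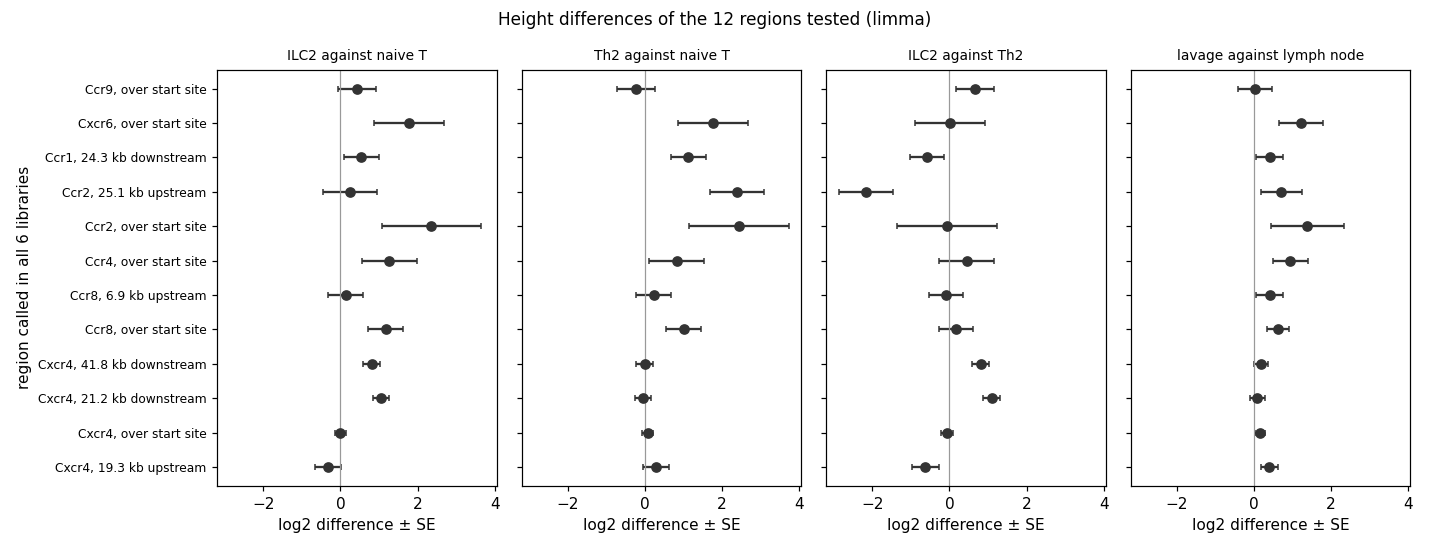
Log2 difference with its standard error (limma) for the 12 receptor regions called in all 6 airway libraries, in 3 cell type contrasts and the lavage against lymph node contrast. The intervals are narrow at the Cxcr4 start site and wide at the Ccr2 start site, Cxcr6 and Ccr4.

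The calls changed when a naive T library was left out. Without the lavage naive T library, 9 of the 12 regions were higher in ILC2s than in the remaining naive T library by limma at an adjusted p under 0.05, where 11.1% of all regions were. The largest of these differences were 4.48 at the Ccr2 start site and 3.24 at Cxcr6, with 2.37 at Ccr4 and 1.85 at the Ccr8 start site. Without the lymph node naive T library instead, these 4 differences were 0.24, 0.30, 0.17 and 0.50, and none passed. Likewise 7 of the 12 were higher in Th2 cells, where 13.7% of all regions were. For Th2 cells the difference at the Ccr2 start site was then 4.55, against 0.31 without the lymph node library, at Cxcr6 3.24 against 0.29, at Ccr4 1.92 against -0.29, and at the upstream Ccr2 region 3.54 against 1.24. Between ILC2s and Th2 cells the difference itself does not use naive T libraries, but its error does: without the lavage naive T library the 2 downstream Cxcr4 regions were higher in ILC2s, where 7.51% of all regions were, and the downstream Ccr1 and upstream Ccr2 regions lower, where 6.13% were. Leaving out the lymph node naive T library gave the same counts of receptor regions and of all regions between ILC2s and Th2 cells. These ILC2 against Th2 calls were thus not particular to leaving out the lavage library. Without the lymph node naive T library instead, 1 region, upstream of Ccr2, was lower in ILC2s than in naive T cells, where 2.83% of all regions were. In these fits a lone naive T library is assumed to vary like the other groups, and the calls against naive T cells depend on which naive T library is used.

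Regions called in both libraries of a cell type and neither of another were few among the 26 receptor regions called in any airway library. ILC2s had 3 such regions against naive T cells, the Ccr1 start site, the small region beside Ccr1 and the region about 26 kb downstream of the Ccr3 start site, or 11.5% of 26, where 11.6% of all regions were called so. Against Th2 cells ILC2s had 2, the same regions without the Ccr1 start site, where the share of all regions was 19.6%. Th2 cells had 1 against naive T cells, the Ccr1 start site, where the share of all regions was 1.1%, and 1 against ILC2s, the Cxcr4 region 12848 bp upstream, where it was 1.51%. Naive T cells had that Cxcr4 region against ILC2s, where the share of all regions was 2.91%, and 0 against Th2 cells, where it was 5.73%. The counts for ILC2s were thus near or below the share among all regions. Without the lavage naive T library the 2 Ccr3 regions nearest the gene joined both lists, giving 5 regions for ILC2s, where the share was 14.7%, and 3 for Th2 cells, where it was 3.57%.

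Between lavage and lymph node, receptor regions called at 1 site alone were most numerous in the libraries labelled naive T. In naive T cells 6 of 26 receptor regions were called only in the lavage, where the share of all regions was 5.52%, and 2 only in the lymph node, where it was 23.3%. The 6 were 3 regions of Ccr3, 2 of Ccr2 and the Ccr6 peak, and the 2 were the farthest upstream Cxcr4 region and the Ccr4 region shared with Trim71. In ILC2s 2 regions were called only in the lavage and 1 only in the lymph node, where the shares of all regions were 4.53% and 4.91%. Among the 2 was that Ccr4 region. A merged region counted for a receptor when any of its peaks was assigned to it. For that Ccr4 region only the lymph node Th2 peak, of 52.2 tags, was assigned to Ccr4. In Th2 cells 1 region was called only at each site, where the shares were 3.96% and 3.64%. No replicate of a cell type at a site exists, so these counts carry no test, and for naive T cells the markers given above moved with them. With the cell type in the model, limma found none of the 12 regions different between lavage and lymph node at an adjusted p under 0.05, 0 at an unadjusted p under 0.05, and 0.0% of all regions higher and 0.0% lower. The largest differences were 1.38 ± 0.94 at the Ccr2 start site, 1.22 ± 0.58 at Cxcr6 and 0.94 ± 0.45 at Ccr4 (limma adjusted p = 0.87 each). When either naive T library was left out these values were -0.05, 0.36 and 0.31.

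Thymus and spleen CD4+ cells gave 1 library each, so their values carry no test. Of 10 receptor regions called in both, Ccr9 alone was past 2-fold higher in thymus, where 7.91% of all regions were, with 2787.8 tags in thymus against 254.5 tags in spleen, a ratio of 10.95, or 2.58 per kb of peak. The Ccr8 start site region alone was past 2-fold lower, where 4.68% of all regions were, with a ratio of 0.17 but 0.86 per kb. Of 15 regions called in either, 3 were called only in thymus, where 15.3% of all regions were, and 2 only in spleen, Cxcr6 and the Ccr2 start site region, where 12.8% were. The 3 were upstream regions of Cxcr4 and Ccr2 and the Ccr4 region shared with Trim71, whose thymus peak was not assigned to Ccr4. All 6 thymocyte markers, among them Rag1 and Ptcra, had a peak in the thymus library, with 12835.3 tags in all against 1010.2 tags in spleen.

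Other genes of the pathway were counted by the same rules. Of 14 other chemokine receptor genes, 10 had a region and 10 of their 28 regions could be tested, of which none passed by limma in any contrast. By calls alone, 4 of the 28 regions were found in ILC2s and not in naive T cells, where 11.6% of all regions were, and 5 the other way, where 2.91% of all regions were. The 4 were 2 of Ccr1l1, a paralogue of Ccr1 in the cluster, 1 of Cxcr1 and 1 of Cx3cr1, and the 5 were at Ccr7, Cxcr3 and, with 3, Cxcr5, receptors of lymph node entry, of type 1 cells and of follicle homing. Of 34 annotated chemokine ligand genes 17 had a region, and 13 of their 32 regions were called in ILC2s and not in naive T cells, against 1 the other way, with the same shares over all regions. Most of the 13 lie close together, so they are not separate loci. These fall at the neighbouring genes Cxcl1, Cxcl2, Cxcl3, Cxcl5 and Pf4 on chromosome 5 and at Ccl1 on chromosome 11. The rest were at Cxcl9, elsewhere on chromosome 5, and at Xcl1 on chromosome 1. Ccl1, the ligand of Ccr8, had 281.8 and 265.0 tags in ILC2s and 119.7 and 145.7 tags in Th2 cells at its tallest such region. Cxcl5, a neutrophil attractant, had 254.2 and 254.9 tags in ILC2s at its tallest region and no peak there in Th2 or naive T cells. The region assigned to Ccl25, the ligand of Ccr9, was lower in ILC2s than in Th2 cells, at a log2 difference of -0.97 ± 0.14 (limma adjusted p = 0.034). It was the only call among 5 ligand regions tested, where 1.28% of all regions were lower in this contrast. This region, chr8:4311994-4327188, was called in all 8 libraries, and other genes that its peaks may overlap were not listed. Of 76 regions at 21 signalling and desensitization genes 35 were tested and 3 passed, where over all regions 2.61% were higher and 1.62% lower in ILC2s than in naive T and 2.1% were higher in ILC2s than in Th2 cells. The region at Gnai3, a G protein subunit, was higher in ILC2s, against naive T cells, by 1.37 (limma adjusted p = 0.049), that at Rac2, a small GTPase of cell movement, was lower in ILC2s than in naive T cells, at -1.27 (limma adjusted p = 0.027), and that at Grk5, a receptor kinase, was higher in ILC2s than in Th2 cells by 1.32 (limma adjusted p = 0.043). By peak calls, 12 of the 76 regions were found in ILC2s and not in naive T cells, where 11.6% of all regions were, and 1 the other way, where 2.91% were. Against Th2 cells the counts were 17, where 19.6% of all regions were, and 2 the other way, where 1.51% were. The tallest ILC2 region of these was at Rgs18, chr1:144764208-144777173, with 1259.1 and 1109.0 tags in ILC2s and no peak in any other library. Among 8 other homing receptors, of which 7 had a region, S1pr1, the receptor for leaving lymphoid organs, had 46.5 and 63.1 tags in ILC2s against 206.1 and 440.0 tags in naive T cells at a region that was lower, at -2.29 (limma adjusted p = 0.014). Other regions of S1pr1 went the other way. Among them, chr3:115756708-115767441 held 610.1 and 760.0 tags in ILC2s against 374.5 and 188.1 tags in naive T cells, at 1.54 ± 0.46 (limma adjusted p = 0.15). Of 13 regions tested in that list, 2 were lower in ILC2s against naive T cells, both at S1pr1, where 1.62% of all regions were. Against Th2 cells 2 were lower in ILC2s, at S1pr1 and Gpr15, where 1.28% of all regions were. None was higher at an adjusted p under 0.05.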

How the data were processed

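H3K4me2 immunoprecipitation libraries were compared. Per the submitters' processing notes, Bowtie, HOMER and mm10 were used. Per the file headers, HOMER findPeaks called peaks in each library with an initial size of 1000 bp, a minimum distance of 2500 bp, stitching into variable lengths, a false discovery rate of 0.001 and a 4-fold excess over IgG, for which the thymus IgG library served all lists but spleen. The 2 samples titled IgG are labelled with the H3K4me2 antibody. The deposited signal is a tag count normalized to 10000000 tags, with a stated minimum of 39.9 to 40.4 that 1.1% to 3.6% of a list's peaks lay slightly under, the lowest at 34.5, and the deposited fold change (ratio) is over IgG; the ratio was not used for any result. Depth is the total tags per library, and a Th2 library with 11870820 tags is the least precise.

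Peaks within 500 bp were merged. Genes came from RefSeq, by nearest interval; a peak overlapping several genes counted for each, and exons were not annotated. Region heights (tags summed over peaks of variable length, so that length and density both enter; log2, no pseudocount, 11644 regions) were tested with limma 3.58.1 in R 4.3.3, without a replicate block, after a test on simulated data; tables used Python 3.11.15 and pandas 2.3.3. All 9 members are named; the choice to print height differences of at least 0.8 on the log2 scale, and some smaller ones, was made after values were seen. Members, lists and markers were chosen with earlier results of these data known. A gene of the list of other receptors is not reported here. Centring removed median shifts of -0.18 (ILC2 against naive T), -0.62 (Th2 against naive T), 0.43 (ILC2 against Th2) and -0.19 (lavage against lymph node). Alternatives were another merging rule, a minimum of 60 tags, equal numbers of peaks (14723), a 10 kb distance, tags per kb, no centring, regions in at least 4 of 6 libraries (with 40 tags where no peak was called), a replicate block, and leaving out each library.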

Additional observations from a re-analysis of the deposited data

Results flagged for a closer look

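In summed tags, the Ccr9 region moved in opposite directions between the sites in 2 cell types. In Th2 cells it held 188.9 tags in the lavage and 77.5 tags in the lymph node, a log2 ratio of 1.29, and in naive T cells 143.8 tags in the lavage and 326.6 tags in the lymph node, a log2 ratio of -1.18. The ratios differ by 2.47, and this difference was not tested, as each cell type has 1 library per site. The naive T lymph node sum includes the peak over the start site, with 245.8 tags, which the other 3 libraries lack.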

How the results depend on the processing

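With a replicate block the count of called receptor regions was 0 in the 3 cell type contrasts. The correlations of deviations between same-numbered libraries were 0.258 for ILC2 and Th2, -0.012 for ILC2 and naive T and 0.107 for Th2 and naive T, so the numbers, which stand for the site, were not taken to pair samples. Regions in at least 4 of 6 libraries gave 1 of 16 receptor regions higher for ILC2 against naive T, where 688 of all 15096 regions were. For Th2 against naive T they also gave 1 of 16 higher, where 79 of all 15096 were. No centring gave 2 of 12 higher for ILC2 against Th2, where 733 of all 11644 regions were. In the setting of 4 of 6 libraries, a library without a peak was given 40 tags. A region called in neither naive T library then has 1 fixed value in both before centring, so a height call there largely restates the peak call. Leaving out each library gave 0 to 9 higher and 0 to 1 lower regions for ILC2 against naive T, 0 to 7 higher for Th2 against naive T, and 0 to 2 higher and 0 to 2 lower for ILC2 against Th2. In the calls it gave 3 to 5 regions for ILC2 against naive T and 1 to 5 for naive T against ILC2, 1 to 3 for Th2 against naive T and 0 to 3 for naive T against Th2, and, between ILC2s and Th2 cells, 2 to 3 and 1 to 2. Equal numbers of peaks left 20 receptor regions among 19882. They gave 1 for ILC2 against naive T, where 1523 of all regions were called so, and 0 the other way, where 1067 were. They gave 2 for Th2 against naive T, where 633 were, and 0 and 2 between ILC2s and Th2 cells, where 1559 and 1332 were. They gave 1 region only in the lavage for ILC2s and 0 only in the lymph node for naive T cells, where 900 and 2248 were. A minimum of 60 tags left 21 receptor regions among 23231. It gave 0 only in naive T against ILC2, 1 only in naive T against Th2 and 0 only in Th2 against ILC2. Over all regions these counts were 709, 1641 and 315. By site it gave 0 for ILC2 lavage, 2 for Th2 lavage, 0 for Th2 lymph node and 1 for naive T lymph node. Over all regions these were 1059, 981, 821 and 5259. It gave 4 regions only in spleen, where 2158 of 19366 were, and 0 lower in thymus, where 444 of 14351 were. Tags per kb also gave 0 lower in thymus, where 29 of 16427 were. A 10 kb distance left 14 receptor regions, with the shares of all regions as given in the results. It gave 0 only in naive T against ILC2, 1 only in ILC2 against Th2 and 0 only in Th2 against ILC2. By site it gave 1 for ILC2 lavage, 0 for ILC2 lymph node, 0 for Th2 lavage and 1 for naive T lymph node.

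At the Cxcr4 start site, where the difference was near 0, signs turned. ILC2 against naive T was -0.18 with no centring, -0.04 per kb, -0.01 with 60 tags, -0.03 with 4 of 6 libraries and -0.09 to 0.09 on leaving out a library. Th2 against naive T was -0.54 with no centring and -0.01 to 0.16 on leaving out a library, and ILC2 against Th2 was 0.36 and -0.16 to 0.01. Th2 against naive T at Ccr4 was -0.29 to 1.92, and lavage against lymph node at the Ccr2 start site -0.05 to 2.20. Leaving out a library gave, for Th2 against naive T, -0.30 to 0.29 and -0.30 to 0.22 at the farther and nearer downstream Cxcr4 regions, which per kb were 0.21 and 0.16 and with 4 of 6 libraries 0.05 and 0.01. For ILC2 against Th2 it gave -0.29 to 0.30 at Cxcr6 (-0.07 with 4 of 6 libraries), -0.20 to 0.05 at the Ccr2 start site (0.36 with no centring, 0.21 per kb) and -0.05 to 0.40 at the Ccr8 start site. The cause of these changes was not tested. With 2 libraries a cell type and the least deep at 11870820 tags, small differences were not detectable.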

Other observations

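For 8 members the genes most like them over the 8 libraries were found, by Pearson's r of log2 summed tags (floored at 40) among genes on other loci with a peak in the same libraries. Ccr3 had 31 such candidates, the nearest being Adam33, at r = 0.993, and Il4, the type 2 cytokine, at r = 0.986, with 479 and 508 tags in ILC2s, 495 and 552 tags in Th2 cells and 254 tags in the lavage naive T library. Cxcr6 was nearest to Gna15, a G protein subunit, at r = 0.995 among 90 candidates. Ccr2 was nearest to Rab8b at r = 0.996 and Hif1a, a hypoxia factor, at r = 0.993. Ccr1 was nearest to Cpd at r = 0.992 and Jak2 at r = 0.986, Ccr4 to Elk3 at r = 0.991 and Klf6 at r = 0.989, Ccr8 to Sumf1 at r = 0.985 and Itga2 at r = 0.982, and Cxcr4 to Ccdc107 at r = 0.996. Ccr9 was nearest to Dhrs3 at r = 0.985 and Aqp11 at r = 0.976, whose level was 3612 tags in thymus against 602 tags in spleen. These r describe 8 libraries that share depth and peak calling, and most members had over 10000 candidates, among which a high value is easily met. Candidates also had to lack a peak in the same libraries, where both genes then take the floor. For Ccr3 this set equal values in the lymph node naive T, thymus and spleen libraries, and for Cxcr6 in thymus. Their high r is thus partly fixed by the choice of candidates.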
